A study of Homo sapiens with 9 samples.

Results

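The let-7 precursors are the hairpin RNAs from which Dicer cuts the let-7 microRNAs (miRNAs), and LIN28B is an RNA-binding protein (RBP) known to hold them back. Here, the peaks of LIN28B at 10 let-7 precursor genes (MIRLET7A1, MIRLET7A2, MIRLET7A3, MIRLET7B, MIRLET7C, MIRLET7D, MIRLET7E, MIRLET7F1, MIRLET7G and MIRLET7I) were compared with those of the other RBPs, hairpin by hairpin. The precursors were 10 of the 1879 miRNA genes in the GENCODE annotation, and a peak belonged to a precursor where it overlapped the gene, extended by 200 nt on both sides, on the same strand. A peak in any library of the 10plex experiments was held by 640 of the 1879 genes, and all 10 precursors were among them.

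The data come from antibody-barcode eCLIP (ABC), in which RNA was crosslinked to protein with UV light and the antibody to each RBP carried a DNA barcode, which was joined on the beads to the RNA bound by that protein. In 10plex ABC, antibodies to DDX3, EIF3G, FAM120A, IGF2BP2, LIN28B, PRPF8, PUM2, RBFOX2, SF3B4 and ZC3H11A shared a tube, and each tube gave 10 libraries. There were 3 tubes of K562, a chronic myelogenous leukemia line, and 2 of an embryonic kidney line called HEK293 here. That line is HEK293T in the sample titles and HEK293XT in the methods of the authors. Singleplex ABC of RBFOX2 in HEK293 (2 libraries) and of SLBP in K562 (2 libraries) had 1 antibody per tube, and no cells were treated other than by crosslinking. All cells came from established lines, no line had a gene deleted, and whether the tubes of a line were separate cultures is not given in the sources used here, so that the spread between tubes may be technical.

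The depth of a library was taken as the reads in its merged peaks, which ran from 115686 to 214427 in the 5 LIN28B libraries and from 10462 (PUM2) to 2159693 (FAM120A) in the others of 10plex ABC. A peak held at least 3 reads, so a hairpin with no peak could still hold reads below this floor, which was 14.0 to 25.9 reads per 1000000 peak reads (RPM) in the LIN28B libraries. Both HEK293 tubes are named HEK293T by their titles and K562 by another label, and 1 K562 tube is labelled K563. The titles were followed. In both HEK293 tubes every other RBP had a peak at MIR99A, a neighbour of let-7c (18 of 18 libraries), and in the 3 K562 tubes none had (0 of 27).

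The let-7 family is made as long primary transcripts that Drosha cuts into hairpins and Dicer cuts into mature miRNAs, which silence mRNAs of growth and of the early embryo. LIN28A and LIN28B bind the loop of the hairpin and block its processing. LIN28A is also known to recruit enzymes that add uridines to the hairpin, which marks it for decay. By earlier work, the cold shock domain of LIN28 proteins recognises a GAU-containing motif in the upstream part of the loop and their zinc knuckles recognise GGAG near its 3′ end. In most adult tissues neither LIN28 gene is active, and both are known for their expression in the early embryo and in tumors.

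The mature miRNAs from the 5′ arm are shown because they define the family. In each, the capitals mark the seed (bases 2 to 8), which pairs with target mRNAs. The sequences are from RefSeq (GRCh38.p14), and let-7a is made from 3 genes.
let-7a: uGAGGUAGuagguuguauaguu
let-7b: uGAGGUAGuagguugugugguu
let-7c: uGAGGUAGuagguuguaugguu
let-7d: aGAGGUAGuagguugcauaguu
let-7e: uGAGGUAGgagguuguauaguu
let-7f: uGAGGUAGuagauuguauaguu
let-7g: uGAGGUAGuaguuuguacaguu
let-7i: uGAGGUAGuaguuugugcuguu
All 10 precursors had the same seed, so that the differences between them described here lay outside it.

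On GRCh38, MIRLET7A1 (chr9:94175957-94176036), MIRLET7F1 (chr9:94176347-94176433) and MIRLET7D (chr9:94178834-94178920) lie on the plus strand in exons of the lncRNA MIRLET7A1HG. MIRLET7A3 (chr22:46112749-46112822) and MIRLET7B (chr22:46113686-46113768) lie on the plus strand in exons of the lncRNA MIRLET7BHG. MIRLET7C (chr21:16539828-16539911, plus strand) lies in an exon of MIR99AHG, and MIRLET7I (chr12:62603686-62603769, plus strand) in an exon of the lncRNA ENSG00000275180 and an intron of MIRLET7IHG. MIRLET7A2 (chr11:122146522-122146593, minus strand) lies in an intron of MIR100HG, MIRLET7E (chr19:51692786-51692864, plus strand) in an intron of SPACA6 and MIRLET7G (chr3:52268278-52268361, minus strand) in an intron of WDR82. The authors kept reads that mapped to a single place, and each stretch of 30 bases of the 10 hairpins has 1 copy on the chromosomes of GRCh38, so the paralogs could be told apart by reads of that length.

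LIN28B had peaks on the hairpins of let-7d, let-7f-1, let-7b, let-7g and let-7i in all 5 libraries. These hairpins are shown whole from RefSeq, 5′ to 3′, and the capitals mark the bases that lay within LIN28B peaks in all 5 libraries.
let-7d: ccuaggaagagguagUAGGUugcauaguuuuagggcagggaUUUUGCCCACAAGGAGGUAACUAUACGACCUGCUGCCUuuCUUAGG
let-7f-1: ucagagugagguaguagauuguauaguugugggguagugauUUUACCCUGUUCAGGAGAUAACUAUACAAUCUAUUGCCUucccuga
let-7b: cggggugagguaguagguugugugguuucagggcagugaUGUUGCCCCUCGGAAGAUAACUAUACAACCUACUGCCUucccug
let-7g: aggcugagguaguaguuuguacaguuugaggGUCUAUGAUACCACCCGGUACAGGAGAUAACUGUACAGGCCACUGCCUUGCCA
let-7i: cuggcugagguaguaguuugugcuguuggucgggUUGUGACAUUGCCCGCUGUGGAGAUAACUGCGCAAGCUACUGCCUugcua
The main stretch of capitals started within the loop and ran into the 3′ arm in all 5, and let-7d had a short additional stretch in its 5′ arm and one at its 3′ end.

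The loops, taken as the bases between the mature 5′ and 3′ arms, are shown for all 10 precursors, with those of the 5 hairpins above first. The capitals mark GGAG and an upstream GAU, which was counted where it ended at least 5 nt before the 3′ arm.
let-7d: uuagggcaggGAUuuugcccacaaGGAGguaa
let-7f-1: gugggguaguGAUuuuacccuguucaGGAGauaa
let-7b: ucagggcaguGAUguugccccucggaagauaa
let-7g: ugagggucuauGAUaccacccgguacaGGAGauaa
let-7i: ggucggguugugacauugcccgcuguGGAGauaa
let-7a-1: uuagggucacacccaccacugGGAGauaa
let-7a-3: uggggcucugcccugcuaugggauaa
let-7a-2: uagaauuacaucaagGGAGauaa
let-7c: uagaguuacacccugGGAGuuaa
let-7e: gaGGAGgacacccaaGGAGauca
The 5 hairpins with LIN28B peaks in all libraries had loops of 32 to 35 nt, and the other 5 of 23 to 29 nt. The upstream GAU was found in let-7b, let-7d, let-7f-1 and let-7g, 19 to 21 nt before the 3′ arm, and in none of the 5 with shorter loops. GGAG did not divide them in this way. It was found 4 nt before the 3′ arm in let-7d, let-7f-1, let-7g and let-7i and also in let-7a-1, let-7a-2, let-7c and let-7e, and its letters were not in the loops of let-7b and let-7a-3.

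Of 739 human hairpins with both arms in RefSeq, 8.12% held GGAG in the loop, 13.7% an upstream GAU and 1.49% both, and 5.55% had a loop of at least 32 nt. Motifs were read on the strand of the hairpin only. A match is a description of these letters and was not tested as a binding site. let-7i, with a loop of 34 nt and LIN28B peaks in all 5 libraries, was the 1 hairpin of these 5 without the upstream GAU.

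In K562, LIN28B peak reads were highest at let-7d and let-7f-1, much lower at let-7b, let-7g and let-7i, and at or near 0 at the other 5. At let-7d, LIN28B held 392, 241 and 425 reads in K562 replicates 1, 2 and 3, and 281 and 255 in HEK293 replicates 1 and 2. At let-7f-1 it held 254, 263 and 260 reads in K562 and 263 and 301 in HEK293. All reads lay in peaks that overlapped the hairpin, and every library of LIN28B was far above every library of the other RBPs at both precursors.

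At let-7b, LIN28B held 36, 31 and 34 reads in K562 and 63 and 44 in HEK293. At let-7g it held 34, 23 and 24 reads in K562 and 48 and 81 in HEK293. At let-7i it held 36, 33 and 26 reads in K562 and 24 and 37 in HEK293. In K562 the ranges of these 3 precursors overlapped, and let-7g was the lowest of the 3 in all 3 libraries. There let-7b and let-7i were equal in replicate 1 and changed places between replicates 2 and 3. In HEK293 let-7i was the lowest of the 3 in both libraries, while let-7b and let-7g overlapped.

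Per 100 nt of hairpin, the mean RPM for let-7d was 3128 ± 1459.8 (SD, n = 3) in K562 and 1542 ± 248 (n = 2) in HEK293. The mean for let-7f-1 was 2192 ± 533 in K562 and 1610.3 ± 4.88 in HEK293. The first and second place did not differ beyond this spread: per base, let-7d held 0.847 to 1.63 times the reads of let-7f-1 over the 5 libraries, and let-7d was ahead in 3 of them. The next precursors were let-7b (303 ± 95.2 and 325 ± 111), let-7i (277 ± 84.7 and 179 ± 37.9) and let-7g (243 ± 104 and 377 ± 104), all in RPM per 100 nt in K562 and HEK293. In K562 the ranges of these 3 neighbours overlapped. In HEK293 let-7i, at 152 to 206 RPM per 100 nt, lay below let-7b (247 to 404) and let-7g (304 to 450), with n = 2 for each.

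At let-7a-1, LIN28B held 0, 4 and 4 reads in K562 and 0 in both HEK293 libraries. At let-7c it held 5 reads in HEK293 replicate 1 and 0 in the other 4 libraries. No LIN28B peak was called at let-7a-2, let-7a-3 or let-7e in any of the 5 libraries. For these 5 precursors, reads that formed no peak are not in the lists, so a 0 means that no peak was called.

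**Figure D1:**
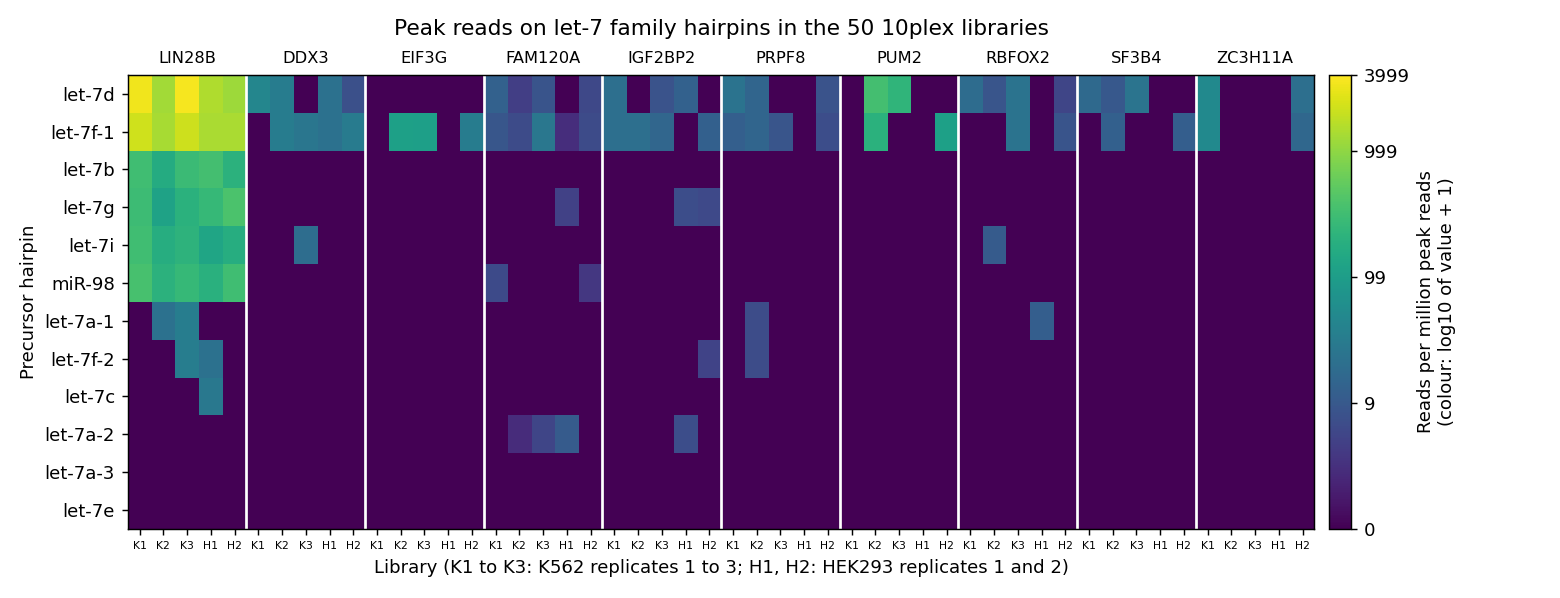
Peak reads on the hairpins of the let-7 family, in RPM on a log colour scale, with 1 row per precursor and 1 column per 10plex library. Rows let-7d, let-7f-1, let-7b, let-7g, let-7i and miR-98 are bright in all 5 LIN28B columns, and outside LIN28B weaker values appear mostly in the rows of let-7d and let-7f-1.

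Summed over the 10 precursors, LIN28B held 752, 595 and 773 reads in K562 and 684 and 718 in HEK293. This was 0.65%, 0.31% and 0.64% of its peak reads in K562 and 0.364% and 0.335% in HEK293. K562 replicate 2 (3103 RPM) was thus closer to the HEK293 libraries (3636 and 3348 RPM) than to K562 replicates 1 and 3 (6500.4 and 6402 RPM). In K562 the mean of 5335 ± 1934 RPM (SD, n = 3) was set against 253 ± 266 for PUM2, the next highest RBP, whose libraries were the smallest. In HEK293 the mean was 3492 ± 203 (n = 2) and the next highest RBP was RBFOX2 with 79.3 ± 8.82. Together, let-7d and let-7f-1 held 85.9%, 84.7% and 88.6% of these LIN28B reads in K562 and 79.5% and 77.4% in HEK293. The singleplex libraries gave a further background: RBFOX2 in HEK293 held 75.3 and 42.8 RPM over the 10 precursors, and SLBP in K562 had no peak at any of them. The SLBP libraries had only 50391 and 11800 peak reads, fewer than any LIN28B library, so their lack of peaks says little.

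To ask whether LIN28B stood apart from the other RBPs of its tube at each precursor, its log2(RPM + 10) was set against the mean of the other 9, with the RBP labels permuted within each tube. Over both lines LIN28B was higher at let-7d by 6.62, let-7f-1 by 6.21, let-7b by 4.69, let-7g by 4.56 and let-7i by 3.92 on this log2 scale, which understates differences at low values. In each of the 5, the exact two-sided permutation p was 1e-05, the smallest that 5 tubes can give (adjusted p = 0.000711 over the 640 miRNA genes, Benjamini-Hochberg), and LIN28B was the highest of the 10 RBPs in 5 of 5 tubes. Thus 5 of the 10 precursors passed, where 4.22% of the 640 miRNA genes did (27 genes, all higher in LIN28B). The median difference was 2.15 for the 10 precursors and -0.05 for all 640 genes.

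Of the 640 genes, let-7d had the largest difference and let-7f-1 the second, and let-7b, let-7g and let-7i ranked 7, 8 and 9. The remaining precursors had differences of 0.37 (let-7c), 0.23 (let-7a-1), -0.02 (let-7a-3), -0.05 (let-7a-2) and -0.52 (let-7e). None of these passed (unadjusted exact permutation p of 0.1, 0.612, 1.0, 0.928 and 0.0959, adjusted p of 0.814 to 1.0). At let-7a-1 the sign depended on the setting: the difference was -0.14 with no correction for depth and -0.06 without K562 replicate 3, a library that held 4 of its 8 reads.

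Within K562 alone the differences were 6.72 for let-7d, 6.27 for let-7f-1, 4.66 for let-7b, 4.34 for let-7g and 4.21 for let-7i. Each had an exact permutation p of 0.001 (adjusted p = 0.0337), the smallest that 3 tubes can give. Without any 1 of the 3 tubes no gene passed, since 2 tubes allow no p below 0.01 and too few genes reached it to pass after adjustment. In K562, 5.0% of the 640 genes were higher in LIN28B at an unadjusted p below 0.05, and 19 genes passed after adjustment, the 5 precursors among them.

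In HEK293 the differences were 6.47 for let-7d, 6.12 for let-7f-1, 4.90 for let-7g, 4.73 for let-7b and 3.49 for let-7i, each with an exact permutation p of 0.01 (adjusted p = 0.427). The smallest p that 2 tubes can give is 0.01, and only 28 of the 640 genes had an unadjusted p below 0.05. With so few, none passed after adjustment. With LIN28B higher, 4.22% of the genes had such a p, and the 5 precursors were among them.

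**Figure D2:**
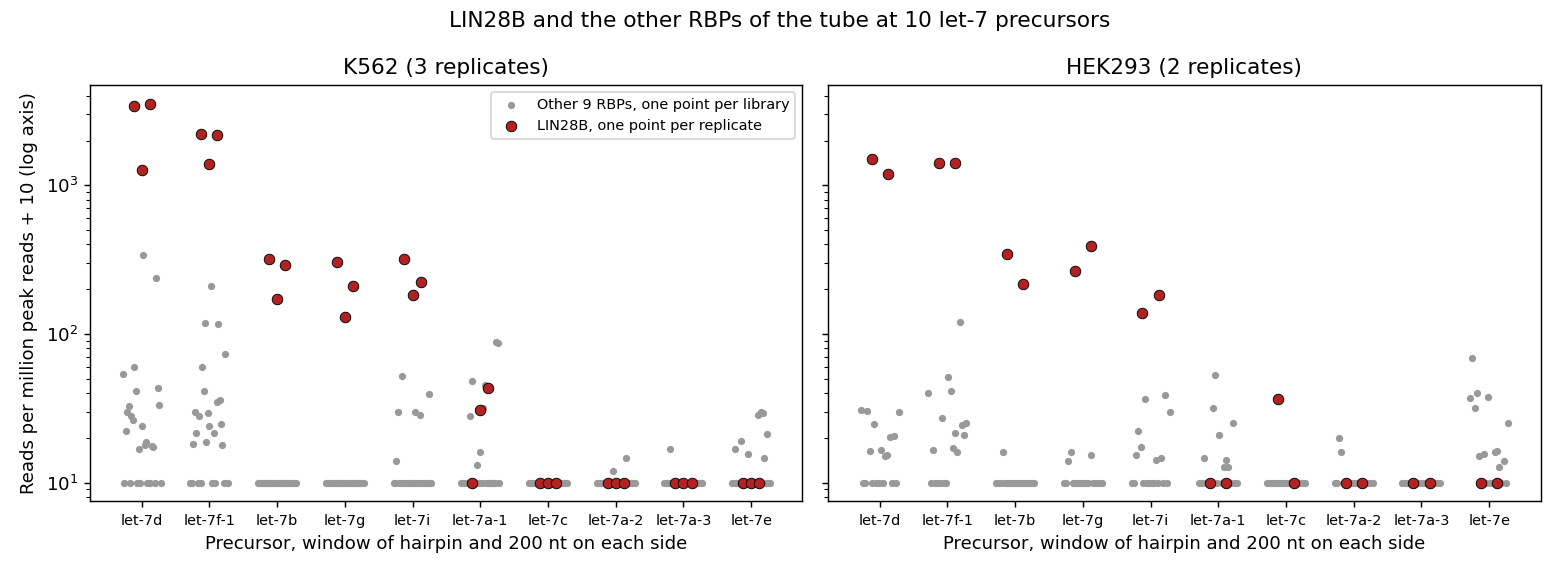
RPM + 10 (log axis) at the 10 precursors in K562 (left) and HEK293 (right), with 1 red point per LIN28B replicate and 1 grey point per library of the other 9 RBPs. At let-7d, let-7f-1, let-7b, let-7g and let-7i all red points lie above all grey points, and at the other 5 precursors red points lie at the pseudocount of 10 or among the grey points, apart from 1 of let-7c.

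LIN28B peaks at the 10 precursors were then set against the complement control (CC), made of the reads of all barcodes of the tube but its own, with the limits of the study for an enriched peak (P below 0.001 and fold above 8). All 28 LIN28B peaks in K562 and all 26 in HEK293 overlapped a hairpin and were enriched. Here each merged peak was counted. Several could lie side by side on 1 hairpin in 1 library, so these peaks are not separate sites. Over all merged LIN28B peaks, 34.2% were enriched in K562 and 24.3% in HEK293. Outside K562 replicate 3 only 85.8% to 90.3% of the LIN28B peaks of a library had a CC value. The rest counted as not enriched, so these shares may be too low on that account. No LIN28B peak lay in the flanks of 200 nt alone. The other 9 RBPs had 44 peaks on the hairpins in K562, of which 1 was enriched, and 25 in HEK293, of which 0 were enriched. Over all merged peaks of these 9 RBPs, 17.1% were enriched in K562 and 10.7% in HEK293. These shares have the same limit, with a CC value for 68.8% to 92.0% of the peaks of a library outside K562 replicate 3. For each of them the CC contains the LIN28B reads of the tube.

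A LIN28B peak was called in every replicate at 5 of the 10 precursors in both lines. Among the 640 miRNA genes this held for 6.72% in K562 and 11.9% in HEK293. The number of precursors with a peak was 5, 6 and 6 in the K562 libraries and 6 and 5 in the HEK293 libraries, as let-7a-1 (K562 replicates 2 and 3) and let-7c (HEK293 replicate 1) were added.

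At the strongest peak of a hairpin, LIN28B took most of the reads of all 10 barcodes, although it gave only 5.78%, 5.45% and 5.32% of the reads of the K562 tubes and 4.35% and 3.45% of the HEK293 tubes. This peak was the one with the most LIN28B reads, and other peaks could be lower or higher. Examples on let-7d are 17 of 28 reads (60.7%) in K562 replicate 1 and 67 of 73 (91.8%) in replicate 2. At let-7d it held 279 of 313 reads (89.1%, 95% Wilson interval 85.2% to 92.1%), 226 of 254 (89.0%) and 275 of 299 (92.0%) in K562. In HEK293 it held 169 of 195 (86.7%) and 255 of 298 (85.6%, 81.1% to 89.1%). The intervals cover counting error only.

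At let-7f-1, LIN28B held 254 of 279 reads (91.0%), 263 of 306 (85.9%) and 260 of 301 (86.4%) in K562, and 149 of 171 (87.1%) and 301 of 375 (80.3%, 75.9% to 84.0%) in HEK293. The share was also high at the precursors with fewer reads. At let-7b it held 36 of 41 (87.8%) and 27 of 30 (90.0%) in K562 replicates 1 and 2, and 55 of 61 (90.2%) and 44 of 52 (84.6%) in HEK293. At let-7i it held 36 of 39 (92.3%) and 33 of 39 (84.6%), and 24 of 29 (82.8%) and 37 of 46 (80.4%).

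Among the 5, let-7g had the lowest share, with 24 of 32 reads (75.0%, 57.9% to 86.7%) in K562 replicate 3 and 48 of 67 (71.6%, 59.9% to 81.0%) in HEK293 replicate 1, and 91.9%, 79.3% and 83.5% in the other 3 libraries. Over the 23 peaks with a recovered CC read number, the share ran from 71.6% to 92.3% (median 86.4%). The peaks of let-7b and let-7i in K562 replicate 3 had a deposited fold over the CC but no CC read number.

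As a fold over the CC, the strongest peaks of the 5 precursors ran from 53.4 to 204 (median 134, 25 peaks). The medians over the 5 libraries were 154 for let-7b, 143 for let-7d, 114 for let-7f-1, 106 for let-7i and 66.5 for let-7g. The ranges of the 5 precursors overlapped in this measure. The few reads at let-7a-1 (fold 23.1 and 23.7) and let-7c (fold 55.0) were also enriched over the CC, with 3, 3 and 2 CC reads, so that these folds are uncertain: LIN28B held 57.1% of 7 reads (25.0% to 84.2%) in both let-7a-1 libraries and 71.4% of 7 (35.9% to 91.8%) at let-7c.

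**Figure D3:**
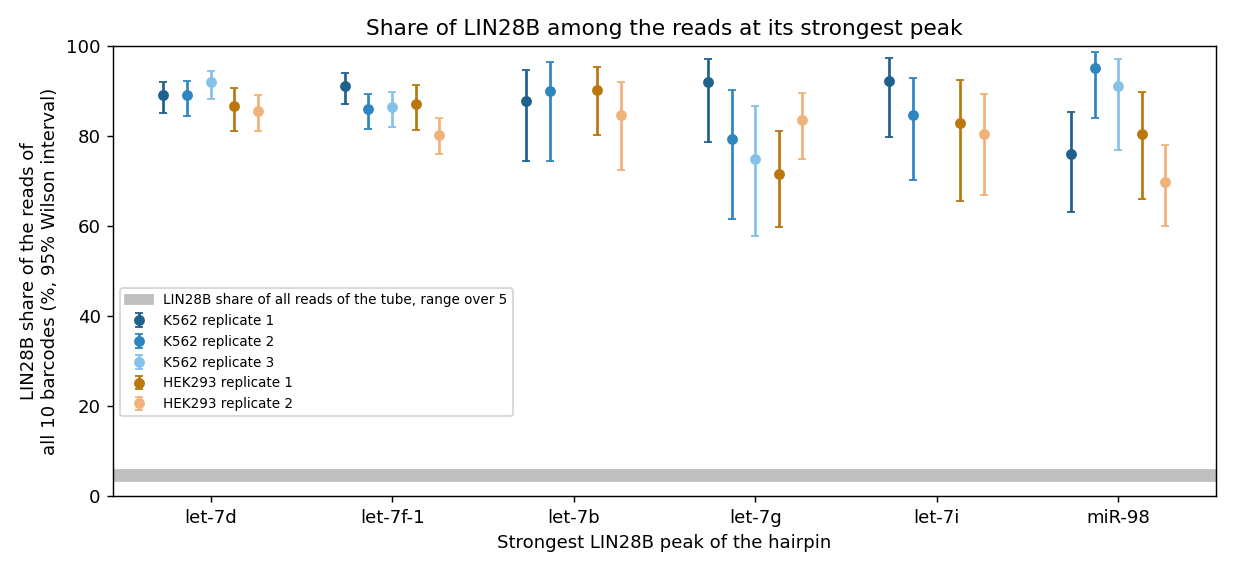
Share of LIN28B among the reads of all 10 barcodes (%, with 95% Wilson intervals) at the strongest LIN28B peak of 6 hairpins, with 1 point per library. All points lie at or above 69.8%, and the grey band marks the 3.45% to 5.78% of all reads of a tube that LIN28B gave. Points of let-7b and let-7i in K562 replicate 3 have no CC read number and are left out.

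Genes on the same host transcript differed. Of the 3 precursors of MIRLET7A1HG, let-7a-1 lies closest to let-7f-1, yet per base let-7f-1 held 60.5 and 59.8 times its LIN28B reads in K562 replicates 2 and 3. In the 3 libraries where let-7a-1 had no peak, let-7f-1 was at least 77.9-fold (K562 replicate 1), 80.6-fold and 92.3-fold (HEK293) higher, with let-7a-1 set at 3 reads per library. Such bounds, here and below, hold only if no more than 3 reads lay on the hairpin without a called peak. Against let-7a-1, let-7d was 55.4-fold and 97.7-fold higher in K562 replicates 2 and 3 and at least 120.2-fold, 86.1-fold and 78.2-fold higher in the others. On MIRLET7BHG, let-7b was at least 9.21-fold to 18.7-fold higher per base than let-7a-3, which had no LIN28B peak. The direction was the same in 5 of 5 libraries for each of these 3 pairs. Precursors of 1 host need not be present at equal levels, and their levels were not measured here.

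LIN28B peaks on these host lncRNAs lay nowhere but at the hairpins. Outside the windows of the let-7 family, MIRLET7A1HG (34648 nt) held 0 LIN28B peaks in either line, where the other 9 RBPs had 40 peaks in K562 and 59 in HEK293, of which 10 and 5 were enriched. The share enriched over all their merged peaks was 17.1% in K562 and 10.7% in HEK293. In all, the other 9 RBPs together had 701069 merged peaks in K562 and 1144584 in HEK293, against 47787 and 46536 of LIN28B, so that these counts are not at equal depth, and whether LIN28B had fewer peaks there than its total would give was not tested. MIRLET7BHG (60060 nt) and MIRLET7IHG (19462 nt) also held 0 LIN28B peaks, against 7 and 10 peaks of the other RBPs in K562 and 91 and 25 in HEK293. At WDR82, the host of let-7g, LIN28B had 7 peaks outside the window in each line, of which 0 and 2 were enriched. The share over all LIN28B peaks was 34.2% in K562 and 24.3% in HEK293.

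The hosts of let-7c, let-7a-2 and let-7e differed in how many peaks of any RBP they held. MIR99AHG (host of let-7c) had 0 peaks of the 10 RBPs outside the windows in K562, and in HEK293 3 of LIN28B (0 enriched) and 80 of the others. MIR100HG (host of let-7a-2) had 0 of LIN28B in both lines, with 5 of the others in K562 and 2 in HEK293. SPACA6 (host of let-7e) had 0 of LIN28B and 44 and 57 of the others. RNA levels were not measured, so that a precursor that LIN28B did not hold and one that was not made cannot be told apart.

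The other RBPs of 10plex ABC had at most 17 reads in a peak on the hairpins of let-7d and let-7f-1. On let-7d, 18 of the 27 K562 libraries of the other RBPs had a peak, of 3 to 9 reads and a fold of 0.0416 to 2.21 over the CC, which for them contains LIN28B. In HEK293, 7 of 18 had one, of 3 to 11 reads and a fold of 0.0891 to 0.48. On let-7f-1, 17 of 27 K562 libraries had a peak (3 to 17 reads, fold 0.0506 to 4.59), and 11 of 18 in HEK293 (3 to 15 reads, fold 0.0535 to 1.14). These peaks came from 8 of the other 9 RBPs at let-7d and from all 9 at let-7f-1, and none was enriched. No other RBP had a peak on the let-7b hairpin, and at let-7g 3 HEK293 libraries had one (FAM120A and IGF2BP2, 3 to 6 reads, fold at most 0.748). On let-7a-2, where LIN28B had no peak, FAM120A, an RNA-binding scaffold protein, had peaks of 15 reads in HEK293 replicate 1 (fold 6.41, not enriched). On let-7a-1, RBFOX2 had a peak of 14 reads in HEK293 replicate 1 (fold 3.98, not enriched), which started at base 77 of 80. PRPF8 had a peak of 3 reads there in K562 replicate 2 (fold 3.76, not enriched), which ended at base 5. Singleplex RBFOX2 ABC in HEK293 had a peak of 84 reads in replicate 1 that reached only the first 8 bases of the let-7f-1 hairpin from upstream, and peaks of 4 and 6 reads on let-7g.

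PUM2, which binds 3′ UTRs, came closest to LIN28B in RPM at let-7d, with 332 in K562 replicate 2 and 228 in replicate 3. These values were 5 and 3 reads in libraries of 15079 and 13154 peak reads, at a fold of 2.21 and 0.969 over the CC. On the let-7i hairpin the 1 enriched peak of another RBP was of RBFOX2, a splicing factor, in K562 replicate 2, with 5 reads against 2 of the CC (fold 12.1), and it reached only the first 5 bases of the hairpin from upstream. With so few reads, this call rests on the chi-squared P.

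In the flanks, 7 of 29 peaks of other RBPs were enriched in K562 and 1 of 51 in HEK293, against the 17.1% and 10.7% over all their peaks. Outside K562 replicate 3, calls of few reads rest on the chi-squared P here too. At let-7a-1, SF3B4, a protein of the spliceosome that binds near the branch point, had flank peaks of 7, 8 and 10 reads in K562 (fold 17.6, 12.4 and 40.5) and of 9 reads in HEK293 replicate 1 (fold 20.5). RBFOX2 had flank peaks there of 6, 11 and 11 reads in K562 (fold 9.03, 10.6 and 9.62), and of 14 and 17 reads in HEK293 with folds of 2.65 and 3.04 that were not enriched. Singleplex RBFOX2 ABC in HEK293 had flank peaks of 21 and 11 reads at let-7a-1. The flanks of let-7a-1 and let-7f-1 overlap, and some of these peaks lay in both. Other RBPs thus had peaks beside let-7a-1 in both lines. At let-7e, peaks of other RBPs in 8 K562 and 12 HEK293 libraries lay in the flank, at most 30 reads each and none enriched, and none lay on the hairpin. Its window reaches the hairpin of the miRNA gene MIR99B, on which other RBPs had peaks in 7 K562 and 12 HEK293 libraries. These are largely the same peaks.

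The LIN28B peaks on the 5 hairpins were not spread evenly. Over the 25 pairs of a hairpin and a library they covered 61.8% to 100% of the loop (median 93.8%) and 81.8% to 100% of the 3′ arm (median 100%). They covered 0% to 100% of the 5′ arm (median 31.8%). Bases within peaks of all 5 libraries, counted from the 5′ end of the hairpin, ran from 40 to 77 in let-7b, from 42 to 80 in let-7f-1, from 32 to 84 in let-7g and from 35 to 79 in let-7i. In let-7d they were 49 bases between 16 and 87. GGAG lay wholly inside the peaks of all 5 libraries in each of the 4 hairpins whose loop holds it (let-7d, let-7f-1, let-7g and let-7i). Of the upstream GAU, all 3 bases lay inside them in let-7g, 1 base in let-7b and in let-7d, and 0 bases in let-7f-1, where they started on the next base. A peak marks where fragments overlapped and not the crosslinked base, so the position has the resolution of the peak.

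**Figure D4:**
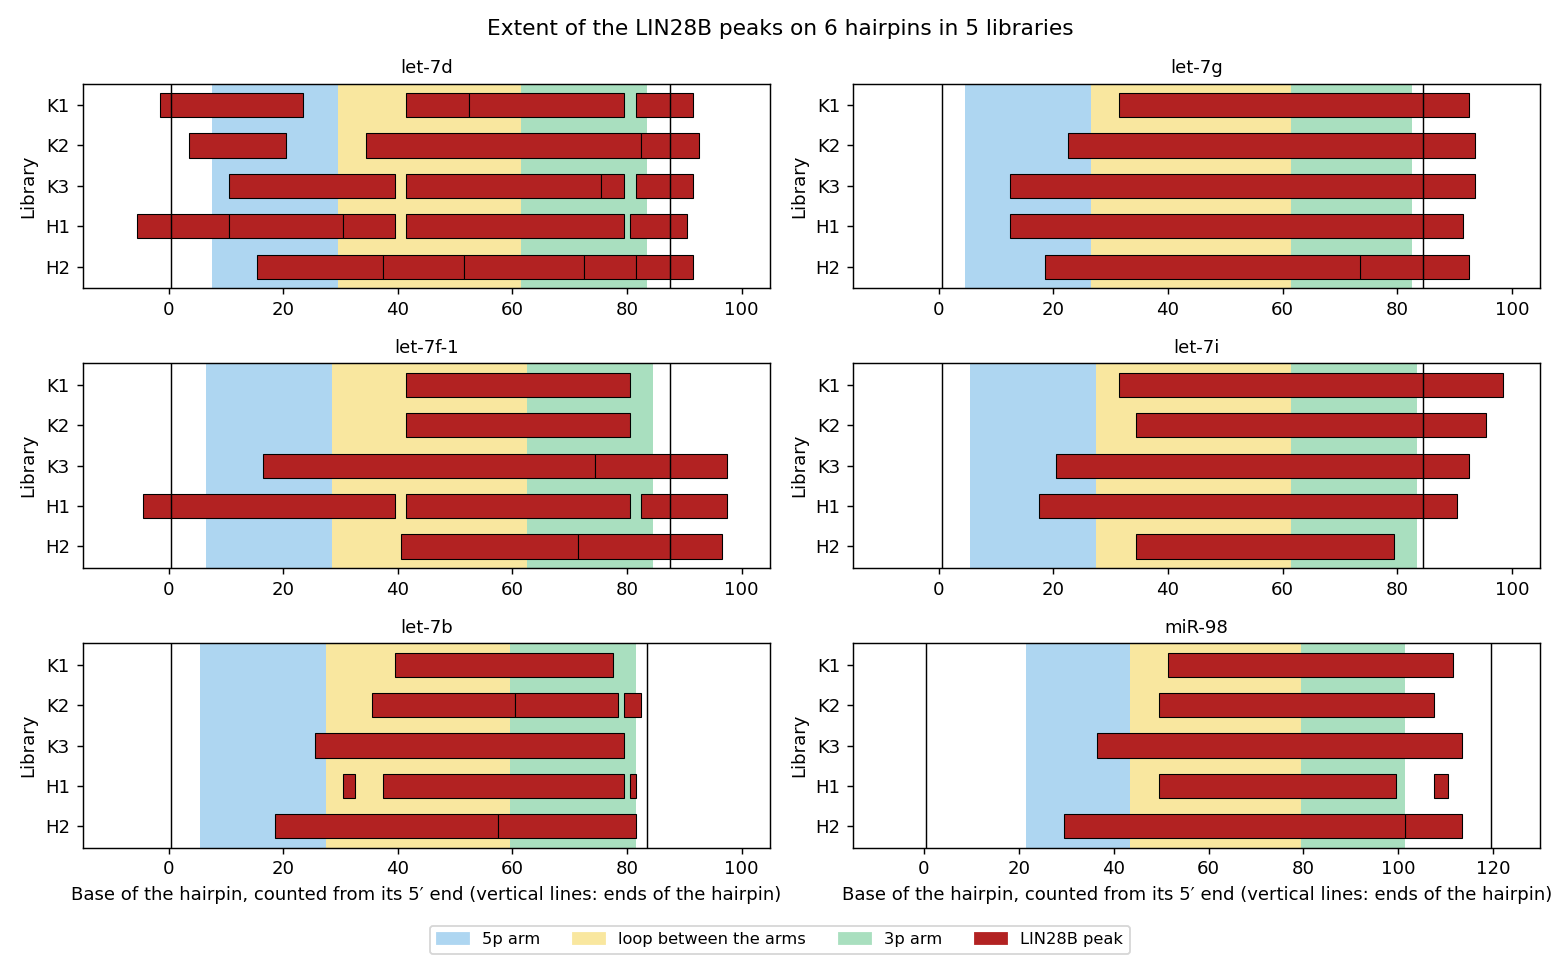
Extent of the LIN28B peaks (red bars, touching peaks drawn side by side) along 6 hairpins, in bases from the 5′ end, for 3 K562 libraries (K1 to K3) and 2 HEK293 libraries (H1, H2). Blue, yellow and green bands are the 5′ arm, the loop and the 3′ arm. In every panel the peaks cover the 3′ part of the loop and most of the 3′ arm in all 5 libraries. They reach the 5′ arm in all 5 libraries at let-7d, and in some libraries only at the other hairpins.

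The let-7 family genes outside the list were described in the same way. MIR98, whose mature miRNA has the let-7 seed, lies in an intron of HUWE1 (chrX:53556223-53556341, minus strand). LIN28B held 41, 39 and 31 reads on it in K562 and 36 and 67 in HEK293, and the difference from the other 9 RBPs over both lines was 4.71 (exact permutation p = 1e-05, adjusted p = 0.000711, higher in 5 of 5 tubes). Its loop of 36 nt is the longest of those compared and holds the upstream GAU but not GGAG. MIRLET7F2, also in an intron of HUWE1 (chrX:53557192-53557274, minus strand), has the mature sequence of let-7f-1. LIN28B held 4 reads there in K562 replicate 3 and HEK293 replicate 1 and 0 in the other 3 libraries, with a difference of 0.54 (exact permutation p = 0.044, adjusted p = 0.531). Per base, MIR98 held 5.41 and 6.28 times its reads in those 2 libraries and at least 9.07-fold to 15.6-fold more in the others. RefSeq gives no 3′ arm for MIRLET7F2, and its loop was not measured.

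**Figure D5:**
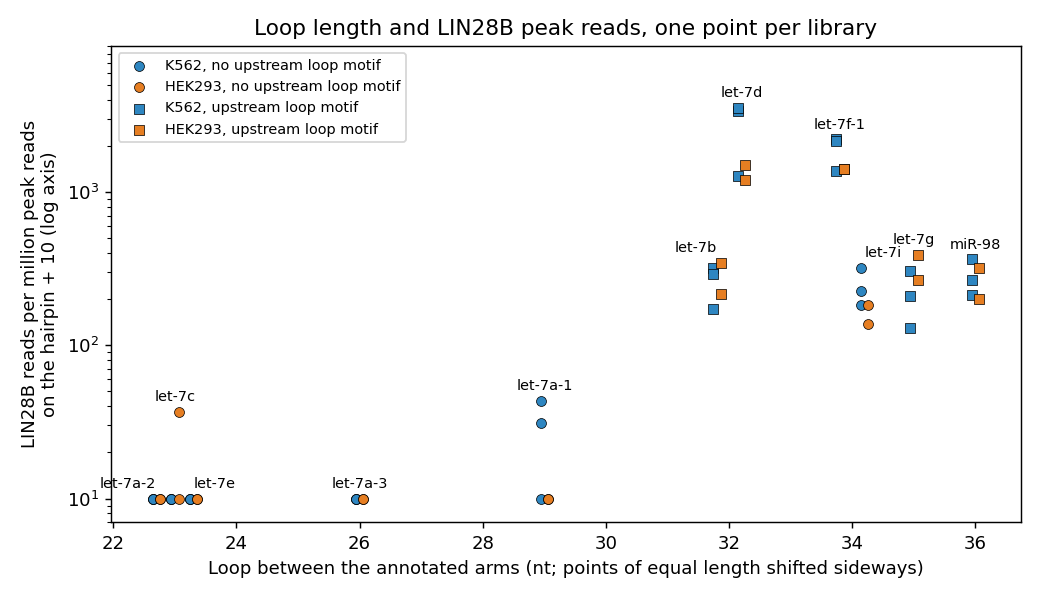
LIN28B RPM on the hairpin + 10 (log axis) against the length of the loop in nt, with 1 point per library for 11 hairpins (squares have the upstream GAU, circles do not). Hairpins with loops of 23 to 29 nt lie at or near the pseudocount of 10, and those with loops of 32 to 36 nt lie above 100 in all 5 libraries.

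LIN28B was next compared between the lines. On the log2 scale used above, HEK293 minus K562 was -0.88 for let-7d, -0.41 for let-7f-1, 0.11 for let-7b, 0.67 for let-7g and -0.58 for let-7i. The exact two-sided permutation p was 0.3 to 0.8 for the 5 precursors and 1.0 after adjustment, where 3 libraries against 2 can give no p below 0.1. In the fold over the CC the same differences were -0.02, 0.05, 0.44, 0.03 and -0.12. For let-7f-1 the sign turned with the measure. A difference between the lines was thus not detectable with 5 libraries.

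Among the cluster neighbours, MIR99A served as a hairpin with many reads and no LIN28B preference. LIN28B held 28 and 8 reads on it in HEK293, where the CC held 410 and 100 reads, a share of 6.39% and 7.41% and a fold of 1.5 and 2.24 that was not enriched. FAM120A held 141 and 29 reads there. No LIN28B peak was called at MIR99B, MIR125A, MIR100, MIR125B1 or MIR125B2 in any library. At MIR99B, next to let-7e, other RBPs had a peak in 7 of 27 K562 and 12 of 18 HEK293 libraries, and the LIN28B difference over both lines was -0.50 (exact permutation p = 0.104, adjusted p = 0.814). The windows of MIR99B and let-7e overlap. In HEK293 the other RBPs had the same mean (11.6 RPM) at both, and the LIN28B difference was -0.83 at both. The values of MIR99B and let-7e thus rest largely on the same peaks and are not separate results.

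Outside the family, MIR3614 and MIR4721 had the largest LIN28B differences in K562 (6.16 and 5.09), followed by MIR4763 (4.66). At MIR3614, LIN28B held 180, 203 and 152 reads in K562 and 100 and 99 in HEK293, and 0 of them were in peaks on the hairpin. At MIR4763, all 36, 31 and 34 reads in K562 and 63 and 44 in HEK293 were those of let-7b, which its window reaches. At MIR4721, LIN28B held 71, 116 and 61 reads in K562 and 42 and 86 in HEK293, of which 0, 116 and 0 and then 42 and 77 were in peaks on the hairpin. Over the 50 libraries of 10plex ABC, the same 3 genes had the log2 values most like the mean of the 10 precursors, with a Pearson r of 0.962 (MIR4763), 0.866 (MIR3614) and 0.78 (MIR4721). The libraries share tubes and the r rests on the contrast of LIN28B with the rest. Among the precursors, r with this mean, of which each is a part, was 0.901 to 0.962 for the 5 with LIN28B peaks in all libraries and at most 0.413 for the others.

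Finally, mRNAs of let-7 processing were looked at from a fixed list of 12 genes: LIN28A and LIN28B, DROSHA, DGCR8, XPO5 and DICER1, which make the miRNA, TUT4, TUT7 and DIS3L2, which add uridines to and degrade the precursor, and the regulators KHSRP, HNRNPA1 and TRIM71. An enriched LIN28B peak in every replicate was held by 2 of the 8 genes with a LIN28B peak in K562 (DROSHA and KHSRP), where 19.1% of all genes with a LIN28B peak held one. In HEK293 it was held by 4 of 10 (KHSRP, LIN28B, TRIM71 and XPO5), against 23.1%. KHSRP, an RBP that promotes let-7 processing, had enriched peaks of 34, 19 and 27 reads in K562 (fold 9.55, 10.3 and 10.9) and 61 and 96 in HEK293 (fold 10.5 and 11.9). For TRIM71, a let-7 target, the peaks held 3 and 4 reads in HEK293, where the calls rest on the chi-squared P, and no peak was called in K562. LIN28A and DIS3L2 had no LIN28B peak in any library. A fold above 204, the highest at the 5 hairpins, was seen on this list only at the LIN28B mRNA, in a peak of 14 reads (fold 308, HEK293 replicate 1).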

How the data were processed

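Peaks of 50 libraries of 10plex ABC (3 tubes of K562, 2 of HEK293) and 4 of singleplex ABC were analysed, grouped by cell line and tube as their titles give them. The authors trimmed reads with cutadapt 2.8, removed reads of repetitive elements, aligned the rest to GRCh38 with STAR 2.7.6, kept reads with a single place, removed PCR duplicates and called peaks per library with CLIPper. They deposited the CLIPper p-value and display score of each peak, and for merged peaks the −log10 P (capped at 400) and the log2 fold over an external background. Against the CC they deposited a chi-squared statistic, or for K562 replicate 3 a −log10 P and log2 fold.

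Deposited folds are ratios of whole reads. Reads per peak were recovered from them (100% of ratios whole, tolerance 1e-09, in all 54 libraries) and equalled the reads in the peak names, where the authors gave them, for 94.2% to 99.6% of peaks. CC reads were solved from the chi-squared statistic, and the shares of the 10 barcodes then summed to 100.0% in each tube. The P of a call from this statistic was the chi-squared P at all read numbers, also where the authors used Fisher's exact test. On simulated data made from K562 replicate 3, solving for CC reads recovered 100.0% of enriched calls with at most 0.0449% false, and at least 91.4% of CC reads were equal. The known and the recovered calls shared the same chi-squared P, so only the CC reads and the fold limit were checked. In the LIN28B libraries of the other tubes, the solved CC reads were whole for 82.1% to 91.1% of peaks with a statistic. A CC of 0 reads was taken as 1, and a peak without a CC value counted as not enriched in all shares given. In sums of reads, touching peaks were counted once, by the highest, while counts of peaks take each merged peak. Depth is the reads in merged peaks, and precision falls with it, to a floor of 3 reads per peak. Reads outside peaks and RNA levels were not analysed.

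The main test was an exact two-sided permutation of RBP labels within tubes on log2(reads per 1000000 peak reads + 10), with Benjamini-Hochberg adjustment over 640 miRNA genes and a threshold of 0.05. Tests ran in Python 3.11.15 with numpy 2.4.6, scipy 1.17.1 and pandas 2.3.3. Gene positions are from GENCODE release 44, where the authors used 35, and sequences from RefSeq (GRCh38.p14). The text names all 10 precursors, MIRLET7F2 and MIR98, the neighbours MIR99A, MIR99B, MIR100, MIR125A, MIR125B1 and MIR125B2, the 3 other miRNA genes with the largest difference in K562, the 3 most like the mean of the precursors, 12 genes of let-7 processing, and the host genes. Peaks of host genes outside the windows and ratios of neighbouring hairpins were added after the values were seen. The members and lists were chosen with earlier results of these data known. Alternatives were other windows, pseudocounts, depths, peak counts, limits and backgrounds, and, for the tests, no replicate block and fits without each replicate.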

Additional observations from a re-analysis of the deposited data

How the results depend on the processing

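Of the values recomputed under the alternatives, those answering a comparison stayed on their side of the threshold, or within their spread, in 97 cases, were weaker in 6 and moved in 4. The 97 include the alternatives of the test within HEK293 and of HEK293 against K562, where 0 genes passed throughout. The few tubes fixed or nearly fixed that outcome, so these cases say nothing about stability. The difference of LIN28B at let-7d, let-7f-1, let-7b, let-7g and let-7i over both lines kept its direction and passed (adjusted exact permutation p of 9.2e-05 to 0.00711) under every alternative run. The number of miRNA genes that passed was smaller for the hairpin without the 200 nt on each side (10 against 19 in K562, and 15 against 27 over both lines) and with no correction for depth (13 against 27). Leaving out 1 replicate gave 0 in K562, where 2 tubes allow no p below 0.01 and too few genes reached it, and 18 to 23 over both lines. In HEK293 it leaves 1 tube, which allows no adjusted p below 0.05. The number of precursors with a LIN28B peak, enriched or not, in every replicate ran from 5 to 6 in K562 and from 5 to 6 in HEK293 without 1 replicate, and in any replicate it was 6 in K562 and 5 to 6 in HEK293. The summed reads per 1000000 peak reads ran from 4752 to 6451 in K562 and from 3348 to 3636 in HEK293. With every peak counted they were 7695 in K562 and 6320 in HEK293, and in HEK293 they were 4893 with 500 nt on each side and 2870.2 with the highest single peak. At let-7a-1 the difference of 0.23 became 5.92 (adjusted exact permutation p = 0.000424) with 500 nt, a window that reaches let-7f-1, and was reversed to -0.14 with no correction for depth. It ran from -0.06 (without K562 replicate 3) to 0.42 with 1 replicate left out. HEK293 against K562 at let-7f-1 was reversed to 0.05 in the fold over the CC; the causes were not tested. RBP labels were permuted within tubes, and with no replicate block 19 genes passed in K562, 0 in HEK293 and 28 over both lines. Replicate numbers of different lines name separate tubes and do not pair them. CLIPper peaks before merging were used for the presence of a peak only, as some of these lists carry no reads. Depth limits the precursors without a peak: reads below the 3 of the smallest peak, or 14.0 to 25.9 reads per 1000000 peak reads, would not be seen. More reads than that may also have gone without a called peak.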
